A study of Rattus norvegicus with 4 samples.

Results

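The matricellular genes examined here were Postn, Spp1, Thbs1, Thbs2, Tnc, Sparc, Ctgf, Cyr61 and Fn1, found by gene symbol in the expression table of rat left ventricle. These are 9 of the 10 genes sought, out of 22861 loci in the table. Thbs4 was not analysed here. Each of the 9 had 1 locus, and all 9 were among the 12876 loci that the authors tested.

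All rats were male Sprague Dawley animals on a 0.4% Dyets chow that had 5/6 nephrectomy (5/6Nx), the surgical removal of most kidney mass, at 10 weeks of age. The anti-miR-21 group then received an LNA (locked nucleic acid) oligonucleotide against miR-21-5p, and the anti-scr group a scrambled LNA, so both groups carried the same kidney injury and no group without surgery is compared here. The LNA was given into a vein at 1 mg/kg on 3 days in each of weeks 1 and 4, and the left ventricle was taken at week 7. Each group had 2 libraries, each made from pooled RNA of 2 to 3 rats. Depth was 54952098 and 47826514 reads in the anti-miR-21 libraries and 48549754 and 53501488 reads in the anti-scr libraries, of which 94% to 94.4% mapped. Levels are the authors' deposited FPKM (fragments scaled to transcript length and library depth), 1 value per group, so the spread between libraries is not visible. How far the deposited p and q take in that spread is not known here. Log2 folds are anti-miR-21 over anti-scr, and a gene is said to have risen or fallen where the deposited q lay under 0.05.

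Matricellular proteins are secreted into the extracellular matrix but mostly signal to cells instead of bearing load. They bind integrins, proteoglycans, growth factors and collagen, are sparse in the resting adult heart, and are made by activated fibroblasts, macrophages and other cells during injury and fibrosis. Fibronectin, encoded by Fn1, is a structural matrix protein that shares many of these partners. MicroRNA miR-21-5p is abundant in injured heart and represses transcripts that pair with its seed. The sequence that the LNA inhibitor was raised against is shown because it sets the comparison, with its seed, bases 2 to 8, in capitals, from RefSeq (build GRCr8, chr10:71902653-71902674, minus strand).
rno-miR-21-5p: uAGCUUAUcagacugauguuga

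Periostin and osteopontin transcripts rose with anti-miR-21, and none of the 9 matricellular genes fell. In the authors' deposited table, 2 of the 9 genes had a q under 0.05 with a higher level, where 0.186% of all tested loci did. No member was called lower, where 0.629% of tested loci were, and 0.815% were called in either direction. By value alone, 8 genes were higher and 1, Cyr61, was lower. The median log2 fold of the 9 was 0.44, beside a median of 0.02 over all tested loci, and single genes ran from -0.25 to 1.31. With the authors' deposited table read at an unadjusted p under 0.05, 6 of the 9 were higher and 0 lower, where 3.18% of tested loci were higher and 6.11% lower. The members were chosen with earlier results of these data known, so these counts describe the genes and are not independent evidence of a direction. Because the samples are pieces of whole tissue, a change in the number of cells that make a transcript and a change in RNA per cell cannot be told apart.

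**Figure D1:**
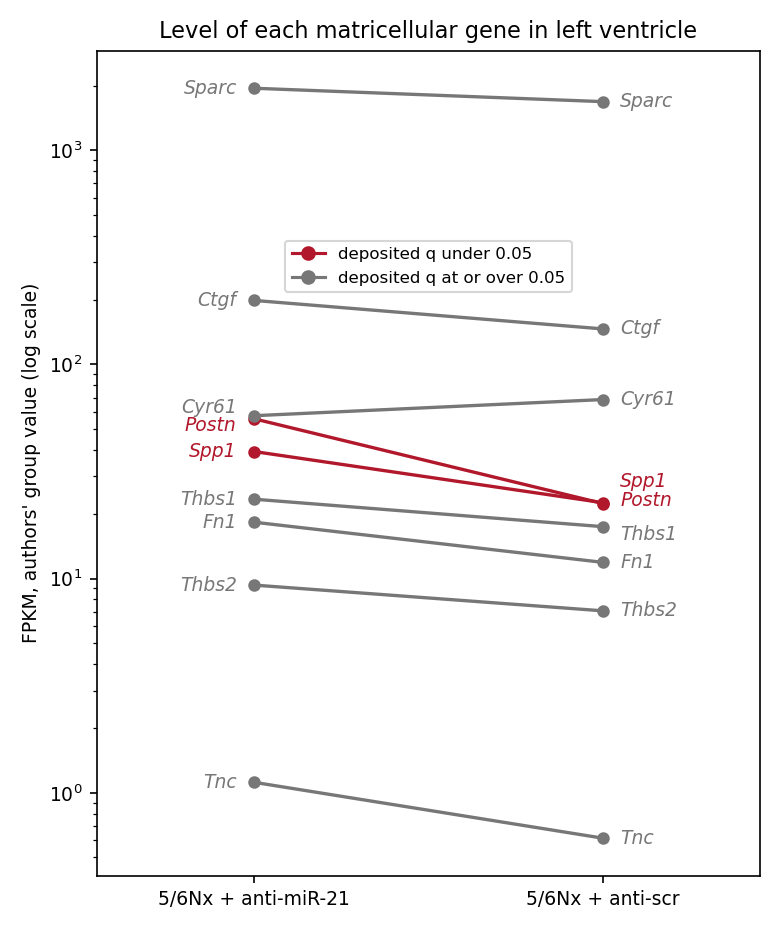
Level of each of the 9 matricellular genes in left ventricle, in FPKM on a log scale, as 1 deposited value for the anti-miR-21 group (left) and 1 for the anti-scr group (right). Lines join the 2 values of a gene, red where the deposited q lay under 0.05; Postn and Spp1 stand at 55.8 and 39.2 FPKM with anti-miR-21 and close together, at 22.4 and 22.6 FPKM, with anti-scr.

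The levels spanned a wide range, and their order was almost the same in both groups. With anti-miR-21 the order was Sparc, Ctgf, Cyr61, Postn, Spp1, Thbs1, Fn1, Thbs2 and Tnc, and with anti-scr Spp1 and Postn changed places. Sparc alone made up 82.8% of the summed FPKM of the 9 genes with anti-miR-21 and 85.0% with anti-scr. Without Sparc, the sum was 404.1 FPKM with anti-miR-21 and 297.4 FPKM with anti-scr, and Postn was 13.8% and 7.55% of it in those groups. Close neighbours in the order were Cyr61 and Postn with anti-miR-21, and Spp1 and Postn with anti-scr, where the ratio of Postn to Spp1 was 0.991. Whether neighbours differ could not be tested, because no value per library was used here.

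Postn encodes periostin, a fasciclin-domain protein that activated cardiac fibroblasts secrete and that helps collagen cross-linking. It had 55.8 FPKM with anti-miR-21 and 22.4 FPKM with anti-scr, a ratio of 2.49 and a log2 fold of 1.31 (rn5, chromosome 2, 163331223 to 163362445). The level was higher in the anti-miR-21 group by 33.3 FPKM. Its p of 5e-05 and q of 0.0131 in the authors' deposited table are the lowest that any locus has, and 49 loci share that p. Only 0.599% of tested loci had a log2 fold as high or higher, and among the 22 loci that rose and had a level above 0 in both groups, Postn ranked 8 by fold. Tgfbi, another fasciclin-family gene, had 17.9 FPKM with anti-miR-21 and 15.4 FPKM with anti-scr (log2 fold 0.22, with q = 0.810 in the authors' deposited table). The 3 genes with a mean level of at least 10 FPKM whose log2 fold lay nearest to that of Postn were Sln (1.25), Reg3g (1.48) and Reg3b (1.49). This likeness rests on 1 fold between 2 group values, and all 3 had the same q of 0.0131 in the authors' deposited table. Sln is known for its expression in the atrium, and Reg3g and Reg3b encode secreted lectins.

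Spp1 encodes osteopontin, a phosphorylated glycoprotein that binds integrins and CD44 and that macrophages and other cells of injured tissue secrete. Its level was 39.2 FPKM with anti-miR-21 and 22.6 FPKM with anti-scr, a ratio of 1.73 and a log2 fold of 0.79 (rn5, chromosome 14, 6653083 to 6659006). In the authors' deposited table its p and q were the same as those of Postn, 5e-05 and 0.0131. Its deposited test statistic was smaller, however, at 2.58 against 4.66 for Postn. Read as a normal deviate, the statistic of Postn gives an adjusted p of 0.00108 and that of Spp1 an adjusted p of 0.720, so the call of Spp1 rests on the deposited p. Spp1 ranked 21 by fold among the same 22 loci, and the smallest log2 fold of any of them was 0.67. Dmp1, the other gene of the osteopontin family with a test, had 2.53 FPKM with anti-miR-21 and 2.21 FPKM with anti-scr (log2 fold 0.19, with q = 0.938 in the authors' deposited table).

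The promoters of the 2 genes that rose are shown for their short sequence patterns, 250 bases before to 50 after the start that RefSeq's table uses (build GRCr8). Postn lies at chr2:140677811-140678110 on the plus strand and Spp1 at chr14:5619755-5620054 on the minus strand. Capitals mark matches to TATAAA, the core of the TATA box. The core bound by TEAD factors, GGAATG, and the AP-1 site, TGANTCA, were also searched, each on both strands.
Postn: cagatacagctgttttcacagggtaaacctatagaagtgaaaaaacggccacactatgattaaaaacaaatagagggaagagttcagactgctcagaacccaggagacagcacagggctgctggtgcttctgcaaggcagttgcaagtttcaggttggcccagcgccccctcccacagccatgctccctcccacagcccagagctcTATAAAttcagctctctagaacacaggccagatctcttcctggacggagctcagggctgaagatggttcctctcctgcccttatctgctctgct
Spp1: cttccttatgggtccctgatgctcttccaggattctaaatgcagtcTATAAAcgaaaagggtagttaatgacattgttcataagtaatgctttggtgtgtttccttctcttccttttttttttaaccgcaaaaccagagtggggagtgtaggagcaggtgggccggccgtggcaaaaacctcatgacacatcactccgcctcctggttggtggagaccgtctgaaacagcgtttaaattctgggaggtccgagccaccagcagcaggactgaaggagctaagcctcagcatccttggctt
Postn held 1 TATAAA that begins 44 bases before the start, and Spp1 held 1 that begins 204 bases before it. Neither held GGAATG or TGANTCA. Promoters were found for 7 of the 9 genes, and 5 of the 7 held TATAAA, which 14.2% of all 33465 promoters of the same length held. None of the 7 held TGANTCA, found in 7.33% of all promoters. No overlap between matches occurs in these sequences, and a match describes the letters only.

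**Figure D2:**
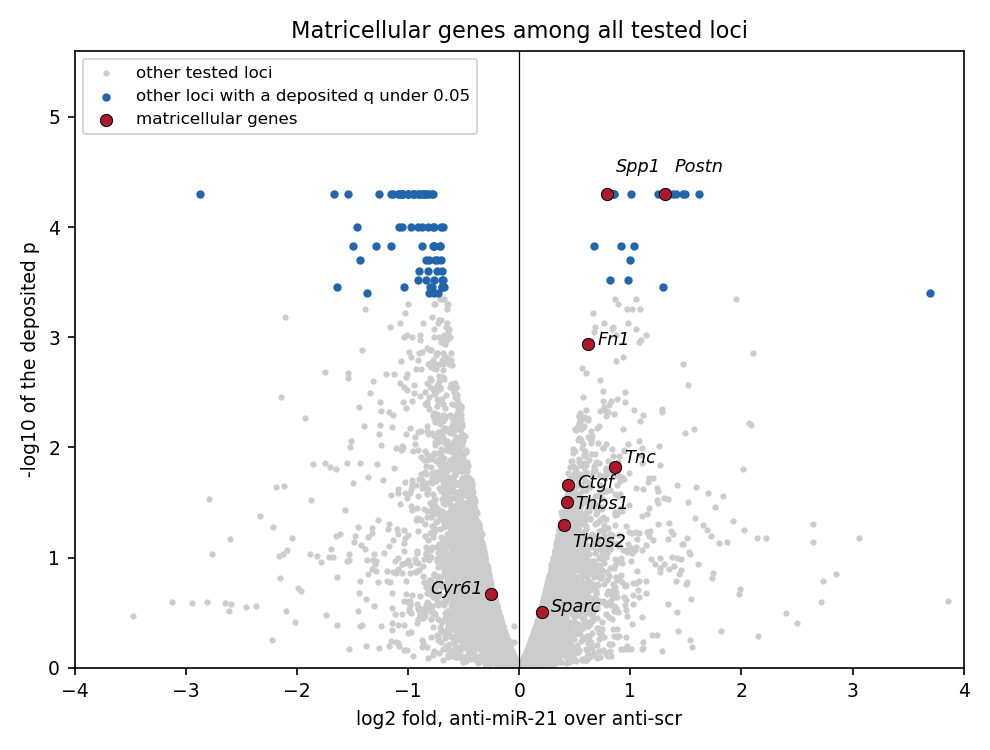
Log2 fold of anti-miR-21 over anti-scr (x axis) against -log10 of the authors' deposited p (y axis) for all tested loci with a level above 0 in both groups; 2 loci beyond a log2 fold of 4 on either side are not drawn. Blue points are other loci with a deposited q under 0.05; of the 9 matricellular genes in red, Postn and Spp1 lie on the top row, at the smallest deposited p of 5e-05, and Cyr61 alone lies left of 0.

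Fibronectin and tenascin-C transcripts had higher values with anti-miR-21 but did not pass the test. Fn1 encodes fibronectin, the fibrillar glycoprotein on which collagen is laid down. Its level was 18.4 FPKM with anti-miR-21 and 11.9 FPKM with anti-scr, a ratio of 1.54 and a log2 fold of 0.62 (rn5, chromosome 9, 78674205 to 78743487). Its p was 0.00115 and its q 0.0897 in the authors' deposited table, under a threshold of 0.1, where 0.342% of tested loci were higher, and over 0.05. Tnc encodes tenascin-C, a large matrix glycoprotein that appears transiently at sites of injury. It was the least abundant of the 9, with 1.12 FPKM with anti-miR-21 and 0.614 FPKM with anti-scr (log2 fold 0.87; rn5, chromosome 5, 83890362 to 83974275). Its log2 fold exceeded that of Spp1, yet p was 0.0150 and q 0.346 in the authors' deposited table. Only 0.0816% of tested loci with a single gene name had a mean level below that of Tnc, so its value lies at the low end of what the authors tested. The tenascin genes Tnn and Tnr had 0.0310 FPKM and 0 with anti-miR-21 and 0.0379 and 0.00842 FPKM with anti-scr, and the authors did not test them.

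The thrombospondins Thbs1 and Thbs2 had nearly the same fold, and neither passed the test. Both encode trimeric glycoproteins that bind the receptors CD47 and CD36 and restrain vessel growth, and thrombospondin-1 can also activate latent TGF-beta. Thbs1 had 23.5 FPKM with anti-miR-21 and 17.5 FPKM with anti-scr, a log2 fold of 0.43 (rn5, chromosome 3, 116411044 to 116424056). Its p was 0.0312 and its q 0.460 in the authors' deposited table. Thbs2 had 9.33 FPKM with anti-miR-21 and 7.08 FPKM with anti-scr, a log2 fold of 0.40 (rn5, chromosome 1, 57842345 to 57872180), with p = 0.0504 and q = 0.539 in the authors' deposited table. The ratio of the level of Thbs1 to that of Thbs2 was 2.52 with anti-miR-21 and 2.47 with anti-scr. Comp, a pentameric thrombospondin best known from cartilage, had 0.869 FPKM with anti-miR-21 and 1.18 FPKM with anti-scr (log2 fold -0.44, with q = 0.822 in the authors' deposited table). All 3 folds were smaller in size than 0.67, the smallest among called loci with a level above 0 in both groups.

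Sparc, the most abundant of the genes, had the smallest log2 fold in absolute size. It encodes a collagen-binding glycoprotein that acts in procollagen processing and fibril assembly. Its level was 1949 FPKM with anti-miR-21 and 1687 FPKM with anti-scr, a ratio of 1.15 and a log2 fold of 0.21 (rn5, chromosome 10, 40573501 to 40595635). It did not pass the test, with p = 0.309 and q = 0.821 in the authors' deposited table, and 25.6% of tested loci had a log2 fold as high or higher. In absolute terms its value was higher by 261.3 FPKM with anti-miR-21, the largest difference among the 9 genes. None of the 4 other tested genes of the SPARC family was called: log2 folds were 0.39 for Fstl1, -0.04 for Spock2, -0.16 for Sparcl1 and -0.37 for Smoc2, with q from 0.643 to 0.988 in the authors' deposited table.

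Of the CCN family 1 tested gene rose, Nov, and Ctgf and Cyr61 did not pass the test. CCN proteins are cysteine-rich modular ligands of integrins and proteoglycans. Ctgf (now Ccn2), a mediator of fibrosis downstream of TGF-beta and of the YAP coactivator, had 199.1 FPKM with anti-miR-21 and 146.6 FPKM with anti-scr, a log2 fold of 0.44 (rn5, chromosome 1, 23331544 to 23334660). It did not pass the test, with p = 0.0219 and q = 0.400 in the authors' deposited table. Cyr61 (now Ccn1), a close relative that is also a YAP target, had 57.7 FPKM with anti-miR-21 and 68.6 FPKM with anti-scr, a log2 fold of -0.25 (rn5, chromosome 2, 270055948 to 270058912). Cyr61 did not pass either, with p = 0.213 and q = 0.757 in the authors' deposited table. The ratio of the level of Ctgf to that of Cyr61 was 3.45 with anti-miR-21 and 2.14 with anti-scr, and the difference between their folds was not tested. Nov (now Ccn3), a further member of the family, rose to 21.7 FPKM with anti-miR-21, against 11.999 FPKM with anti-scr, a log2 fold of 0.86 with q = 0.0131 in the authors' deposited table. Wisp2 (now Ccn5) had a similar log2 fold of 0.87, from levels of 14.6 FPKM with anti-miR-21 and 8.01 FPKM with anti-scr, and q = 0.0815 in the authors' deposited table.

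The promoters of Ctgf and Cyr61 are shown because both genes belong to 1 family and their values differ in sign. Ctgf lies at chr1:22624565-22624864 and Cyr61 at chr2:237225640-237225939, both on the minus strand of GRCr8, from RefSeq, with capitals on matches to GGAATG on either strand and to TATAAA.
Ctgf: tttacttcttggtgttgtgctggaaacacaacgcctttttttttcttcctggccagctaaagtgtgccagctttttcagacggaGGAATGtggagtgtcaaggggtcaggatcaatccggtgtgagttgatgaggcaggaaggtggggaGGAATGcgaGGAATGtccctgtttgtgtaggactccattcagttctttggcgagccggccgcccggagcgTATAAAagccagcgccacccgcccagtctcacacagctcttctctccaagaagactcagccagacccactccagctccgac
Cyr61: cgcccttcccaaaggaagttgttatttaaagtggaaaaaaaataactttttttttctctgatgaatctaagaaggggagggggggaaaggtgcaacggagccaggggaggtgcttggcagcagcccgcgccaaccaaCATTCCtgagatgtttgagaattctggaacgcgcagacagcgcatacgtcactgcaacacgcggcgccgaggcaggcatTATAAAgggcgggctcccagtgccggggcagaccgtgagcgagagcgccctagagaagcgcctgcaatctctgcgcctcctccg
Ctgf held GGAATG 3 times, beginning 166, 101 and 92 bases before the start. Cyr61 held it once in the opposite orientation, as CATTCC, 113 bases before the start. Both held TATAAA, beginning 31 bases before the start in Ctgf and 34 bases before it in Cyr61. Of the 7 promoters, 4 held GGAATG on either strand, those of Thbs1, Sparc, Ctgf and Cyr61, where 14.2% of all promoters of this length did. Neither Postn nor Spp1, the 2 genes that rose, was among the 4.

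**Figure D3:**
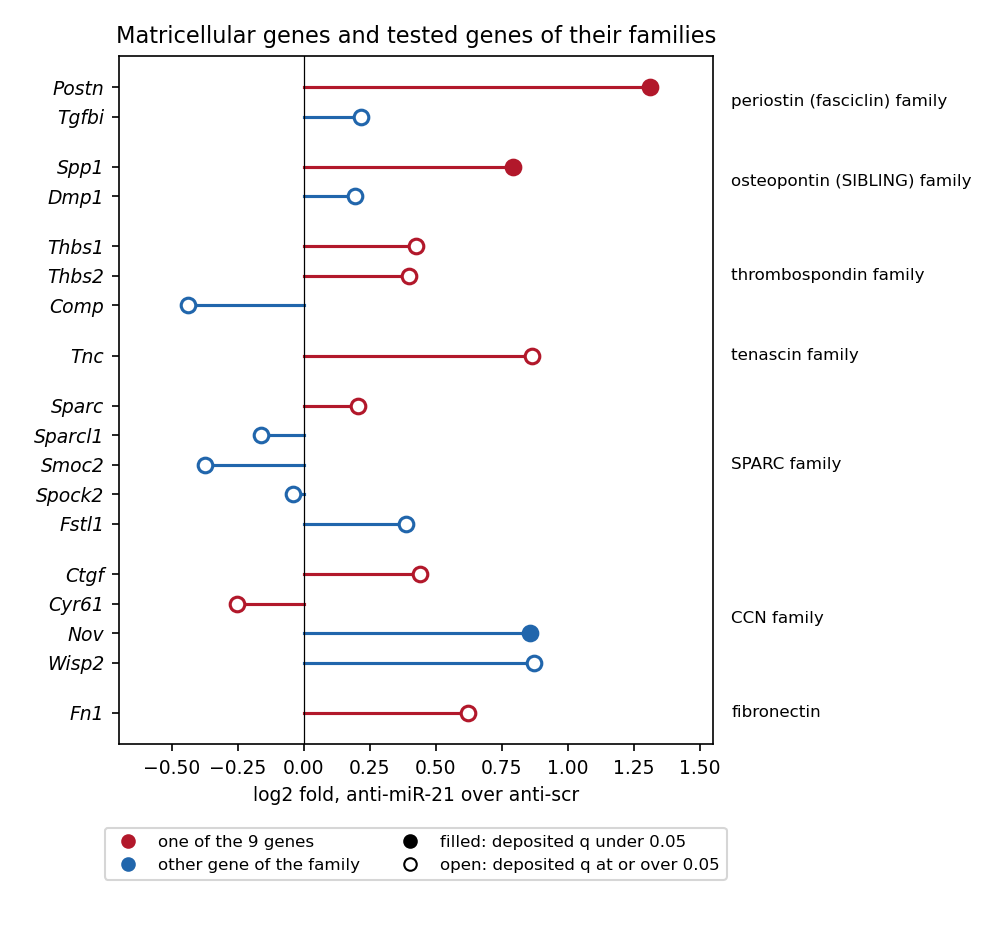
Log2 fold of anti-miR-21 over anti-scr (x axis) for the 9 matricellular genes in red and for the tested relatives of the same families in blue, 1 gene a row. Filled points have a deposited q under 0.05 and are Postn, Spp1 and Nov; Ctgf and Cyr61 of the CCN family lie on opposite sides of 0.

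Among 83 tested related genes in 6 lists, 3 rose, Nov, Col8a1 and Fbn1, and 0 fell, where 0.186% of all tested loci rose and 0.629% fell. The counts by unadjusted p under 0.05 given for these lists stand beside 3.18% of all tested loci that were higher, and 6.11% that were lower, by the p in the authors' deposited table. Of the 17 tested genes of a list of other matricellular genes, 1 rose, Nov, and 0 fell, with a median log2 fold of 0.05. In that list 2 were higher and 0 lower by unadjusted p in the authors' deposited table. No gene among 12 tested receptors was called, and 2 were higher and 1 lower by unadjusted p in the authors' deposited table. Cd36, a thrombospondin receptor and fatty acid transporter, had 974.9 FPKM with anti-miR-21 and 871.3 FPKM with anti-scr (log2 fold 0.16, at a locus it shares with RGD1565355), and Itgb1, the shared integrin beta-1 chain, had a log2 fold of 0.22. Their q was 0.877 and 0.818 in the authors' deposited table. The osteopontin receptor Cd44, chosen after its value was seen, had 12.3 FPKM with anti-miR-21 and 8.24 FPKM with anti-scr (log2 fold 0.58, with q = 0.231 in the authors' deposited table).

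A list of matrix partners and assembly genes held collagens, fibrillin and collagen-modifying enzymes among others. Of its 17 tested genes, 2 rose and 0 fell, with a median log2 fold of 0.31. By unadjusted p in the authors' deposited table, 5 were higher and 0 lower. Col8a1, a short-chain collagen, rose to 25.7 FPKM with anti-miR-21, against 14.3 FPKM with anti-scr (log2 fold 0.85). Fbn1, the main microfibril protein, rose to 24.2 FPKM with anti-miR-21, against 15.2 FPKM with anti-scr (log2 fold 0.67). In the authors' deposited table their q was 0.0131 and 0.0261. None of 16 tested genes of the TGF-beta pathway was called, and 0 were higher and 1 lower by unadjusted p in the authors' deposited table. Its receptor gene Tgfbr2 had 60.1 FPKM with anti-miR-21 and 52.5 FPKM with anti-scr (log2 fold 0.20). None of 10 tested genes of the YAP-TEAD and SRF pathway was called, with 0 higher and 1 lower by that p. There Ankrd1, a YAP target that heart muscle makes in quantity, had a log2 fold of -0.12 and Yap1 itself 0.17. Of 11 tested proteases and inhibitors none was called or had an unadjusted p under 0.05, and the most abundant, Timp3 and Timp2, had log2 folds of 0.50 and 0.06.

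**Figure D4:**
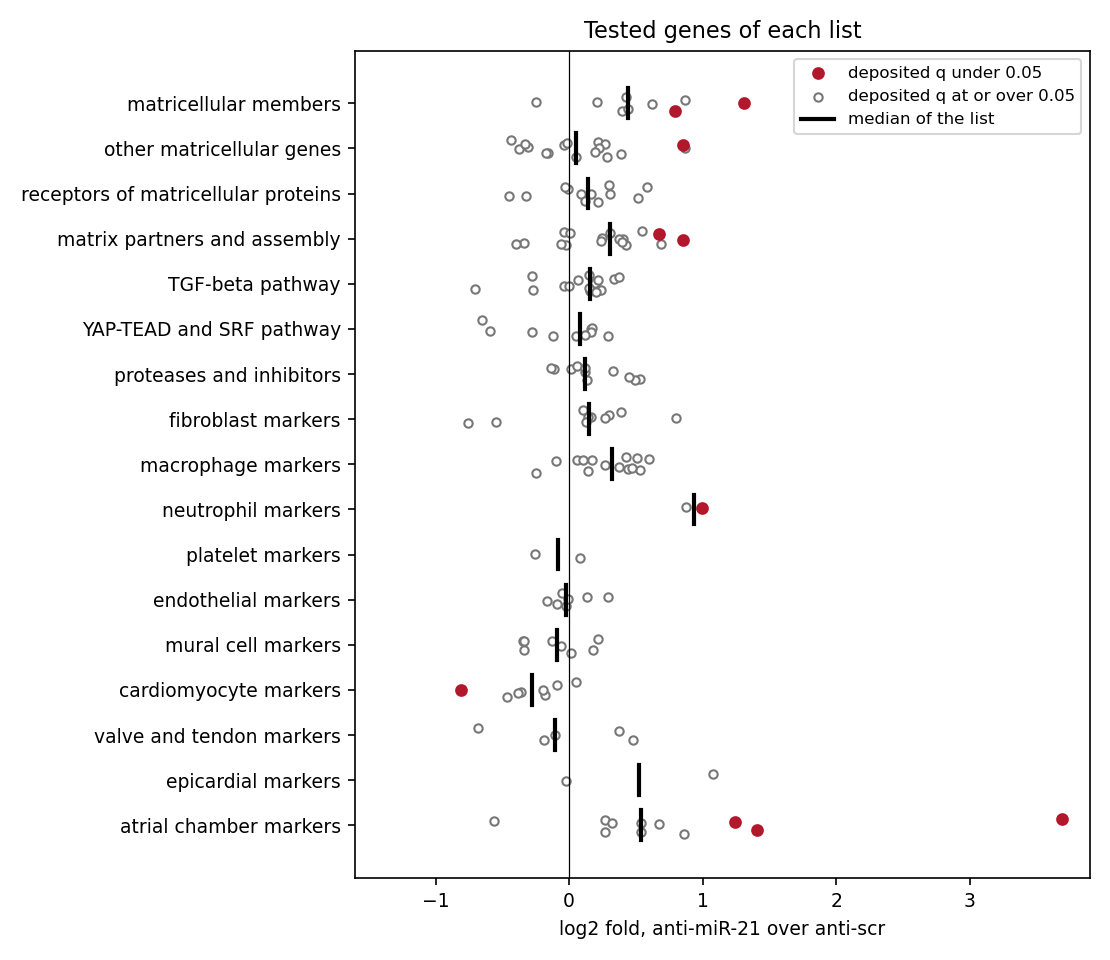
Log2 fold of anti-miR-21 over anti-scr (x axis) of each tested gene, 1 row a list, with the median of the list as a black bar and genes with a deposited q under 0.05 in red. The 9 matricellular genes in the top row have a median of 0.44; cardiomyocyte markers have a median of -0.28 and atrial chamber markers of 0.54.

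Of 58 tested genes in 9 lists of cell type markers, 1 rose, S100a9, and 1 fell, Myl3, where 0.186% of all tested loci rose and 0.629% fell. The marker counts by unadjusted p under 0.05 stand beside 3.18% of tested loci higher and 6.11% lower by the p in the authors' deposited table. The summed levels of some lists differed in value. Markers of heart muscle were abundant, and 8 cardiomyocyte genes summed to 78804 FPKM with anti-miR-21 and 99383 FPKM with anti-scr. Of the 8, 7 were lower in value. Myl3, the ventricular myosin light chain, fell (log2 fold -0.81), with q = 0.0131 in the authors' deposited table. None of 10 fibroblast markers was called, and they summed to 1965 FPKM with anti-miR-21 and 1807 FPKM with anti-scr, a ratio of 1.087. By value 8 of the 10 were higher, and 2 were higher and 1 lower by unadjusted p in the authors' deposited table. The 2 higher, Thy1 and Lum, had log2 folds of 0.80 and 0.39 and were named after their values were seen. The most abundant, Dcn and Gsn, had log2 folds of 0.27 and -0.55, and Gsn was the 1 lower. None of 14 macrophage markers was called. Of them, 4 were higher and 0 lower by unadjusted p in the authors' deposited table, and the list's sum was 559.3 FPKM with anti-miR-21 and 429.4 FPKM with anti-scr. The ratio of these sums was 1.30, and by value 12 of the 14 were higher and 2 lower. The most abundant, Lyz2 and Ctss, had log2 folds of 0.60 and 0.42. Lyz2 was the largest part of each sum, with 250.7 FPKM with anti-miR-21 and 165.4 FPKM with anti-scr. Of the neutrophil markers 2 of 7 were tested and S100a9 rose (log2 fold 0.99, with q = 0.0318 in the authors' deposited table), while Mpo and Elane were listed at 0 in both groups. The list summed to 96.0 FPKM with anti-miR-21 and 49.8 FPKM with anti-scr, nearly all of it from S100a9 and S100a8. With anti-miR-21 S100a9 had 58.1 FPKM and S100a8 36.8 FPKM, and with anti-scr they had 29.2 and 20.1 FPKM.

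Most of the atrial genes listed had higher values as well. Of 11 atrial chamber markers, a list added after the data were examined, 10 were higher in value and 3 rose, Sln, Bmp10 and Mybphl, where 0.186% of tested loci rose. Because the list was added then, these counts describe its genes and are not independent evidence of a direction. Bmp10 had 1.38 FPKM with anti-miR-21 and 0.106 FPKM with anti-scr (log2 fold 3.69, with q = 0.0491 in the authors' deposited table). The list summed to 2818 FPKM with anti-miR-21 and 1876 FPKM with anti-scr, a ratio of 1.502. Most of each sum was Nppa, named after its value was seen, with 2165 FPKM with anti-miR-21 and 1492 FPKM with anti-scr. Nppa was not called, with q = 0.209 in the authors' deposited table. The part of atrial tissue, macrophages, neutrophils or fibroblasts in the values of Postn and Spp1 was not tested. Markers of platelets, endothelium, mural cells, valve and tendon, and epicardium had no called gene, and 1 of their genes, in the valve and tendon list, had an unadjusted p under 0.05 in the authors' deposited table. Their summed levels had ratios from 0.929 to 1.06 between anti-miR-21 and anti-scr. Their most abundant tested members had log2 folds of 0.09 for Pf4 and -0.25 for Gp1bb, whose locus carries a second name, -0.17 for Pecam1 and 0.29 for Tek, and 0.22 for Rgs5 and 0.18 for Abcc9. For Scx and Prg4 they were -0.68 and 0.37, and for Wt1 and Upk1b -0.03 and 1.08. Msln, an epicardial marker that the authors did not test, had 1.027 FPKM with anti-miR-21 and 0.844 FPKM with anti-scr, a higher mean than Upk1b. The platelet genes Ppbp and Gp9 were listed at 0 in both groups.

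Log2 folds differed with local gene density over the named tested loci, and most of the matricellular genes had few neighbours. The 9 genes had between 1 and 11 named loci with midpoints within 500 kb, with a median of 5, where the median over 9900 named tested loci was 11. Sparc, with 11, and Spp1, with 10, stood at or next to that median, and the difference in density was not tested. These loci were cut into 10 equal bins by gene density. The median log2 fold was 0.17 in the bin with the lowest density and -0.29 in the bin with the highest. Measured from the median of its own bin, the log2 fold was 1.17 for Postn, 0.72 for Spp1, 0.72 for Tnc and 0.46 for Fn1. It was 0.32 for Ctgf, 0.28 for both Thbs1 and Thbs2, 0.20 for Sparc and -0.37 for Cyr61. No gene changed sign by this measure, and the median of the 9 was 0.32 in place of 0.44.

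**Figure D5:**
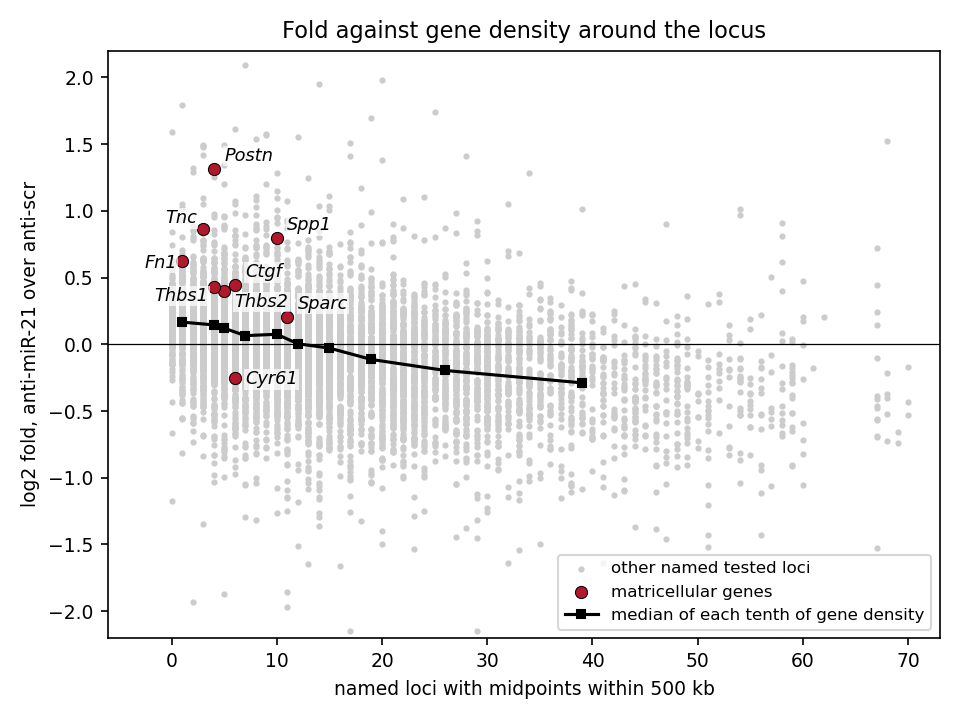
Log2 fold of anti-miR-21 over anti-scr (y axis) against local gene density, as named loci with a midpoint at most 500 kb away (x axis), for named tested loci in grey and the 9 matricellular genes in red; 8 loci beyond a log2 fold of 2.2 on either side are not drawn. Black squares are medians of the 10 density bins; Postn, at 4 neighbours, and Spp1, at 10, lie above the squares and Cyr61 lies below them.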

How the data were processed

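RNA of rat left ventricle was sequenced in 4 libraries, each a pool of 2 to 3 rats, in 2 groups. Alignment and quantification used build rn5 and, per the submitters' processing notes, Cuffdiff, Cufflinks 2.0.10, TopHat2 2.0.10 and cutadapt. Not given in the sources used here are the annotation and the settings. The authors deposited FPKM values as 1 value per locus and group, with a test statistic (a score, 0 where no test was made), a p-value and a q-value. A second deposited table gave the count of reads and the percent of reads mapped per library. Because no value per library was given, no model was fitted here; calls are deposited q under 0.05, and how the authors' test took in the spread between pools is not known here.

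Here 97 rows with several gene names, whose cells stood shifted, were realigned, and folds were recomputed with no pseudocount. A gene's locus is the one with the highest mean FPKM. Recomputed Benjamini-Hochberg values differed from the deposited q by at most 5.2e-07. Members and lists were chosen with earlier results of these data known. Named were all members, in each list up to 3 called genes of largest fold or else the 2 most abundant (Upk1b was added as the second tested epicardial marker), and the 3 genes nearest to Postn in fold, with a mean of at least 10 FPKM; 1 gene that the rule names is not reported here. Local gene density counts named loci with a midpoint at most 500 kb away. Python 3.11.15, pandas 2.3.3 and scipy 1.17.1 were used. The parser and adjustment were tested on simulated data. Alternatives were other thresholds, FPKM minimums, pseudocounts, centrings and locus choices. Promoter and miRNA sequences are RefSeq's, on GRCr8.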

Additional observations from a re-analysis of the deposited data

How the results depend on the processing

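No paired analysis was possible because the deposited expression values are 1 per group, and for the same reason no library could be left out. Postn and Spp1 were called after a mean FPKM minimum of 1 or 5, and Fn1 joined them at a q under 0.1. Taking the locus of the lowest p could not test these calls, because each of the 9 genes had 1 locus. Of the 9 matricellular genes, 0 were called at a q under 0.01 (as no locus was), 6 at an unadjusted p under 0.05, and 1, Postn, with an absolute log2 fold of at least 1. The normal reading of the deposited statistic, chosen after seeing the data, called 1, Postn, and 67 loci in all against 105. In the 6 related lists, 3 genes were called, against 6 at a q under 0.1 (5 higher, 1 lower) and 0 at a q under 0.01. There 12 were called unadjusted (9 higher, 3 lower), 0 with the fold minimum and 0 by the normal reading. In the 9 marker lists other than the atrial one, 2 were called, against 0 at a q under 0.01 and 12 unadjusted (9 higher, 3 lower). With the fold minimum 0 of these markers were called, and by the normal reading 1. Of all tested loci, 0.815% were called, against 1.31% at a q under 0.1, 9.3% unadjusted and 0.318% with the fold minimum. The median log2 fold of 0.44 became 0.32 when measured from the median of loci of like gene density. It lay between 0.41 and 0.44 under the other 4 alternatives. No member fold changed sign when measured from the median of named loci or of loci of like gene density. The remaining alternatives could not turn a sign. A pseudocount added to both groups keeps their order, and summing over loci left each fold as it was, with 1 locus per gene. No called locus with a level above 0 in both groups had an absolute log2 fold under 0.67. The mean level of Tnc lay below both FPKM minimums.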

Other observations

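Several related genes had low values and were not tested by the authors. Mmp12, a macrophage elastase, was at 0.575 FPKM with anti-miR-21 and 0.162 FPKM with anti-scr, and Itga4, an integrin chain that can bind osteopontin, at 0.339 FPKM with anti-miR-21 and 0.175 FPKM with anti-scr. Ibsp and Mepe, relatives of Spp1, stayed under 0.12 FPKM in both groups, and Dspp was listed at 0 in both. Col1a2 was listed at 0 with anti-miR-21 and at 0.0123 FPKM with anti-scr, although Col1a1, whose product forms the same collagen trimer, stood at 52.6 FPKM with anti-miR-21 and 44.4 FPKM with anti-scr, so the Col1a2 value can be a failed estimate.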
